A study of Mus musculus with 6 samples.

Results

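The Lin28, Trim71, Hmga and Igf2bp genes were examined in the dorsal forebrain of mouse embryos at E11.5, in 3 mutant and 3 control embryos. The members are the 8 genes Lin28a, Lin28b, Trim71, Hmga1, Hmga2, Igf2bp1, Igf2bp2 and Igf2bp3, found by their gene symbols in the authors' deposited table. They are read by 14 of the 39429 probes on the array. Hmga1 has 3 probes, Lin28b, Trim71, Hmga2 and Igf2bp2 have 2 each, and Lin28a, Igf2bp1 and Igf2bp3 have 1 each. The symbol was taken from the array maker's annotation, since a further symbol column of the same table names only 5 of these probes by the member alone. RNA came from single embryos, without pooling, and each embryo was hybridised to its own 1-colour array. The labels call the groups mutant and control, and the series title places them in a study of Wnt/beta-catenin signalling in precursors of the cortex. The mutated gene, the allele, the strain and any driver of recombination are not given in the sources used here, so no gene could be used to check the labels. Mutant 1 and control 1 were litter mates, and so were mutant 2 and control 2, and mutant 3 and control 3.

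These genes are known from the control of developmental timing. Lin28a and Lin28b are RNA-binding proteins that hold back the maturation of let-7 microRNAs, and let-7 in turn represses Lin28b, Hmga2, Igf2bp1 and Trim71. In the embryonic brain the Lin28 genes, Hmga2 and Igf2bp1 are known to be high in early neural precursors and to decline as let-7 rises. The microRNAs themselves were not measured on this array. They are shown here because the members are read against them, with the seed, bases 2 to 8, in capitals. miR-125b is the mouse relative of lin-4, the other classical timing microRNA of worms.
let-7a-5p: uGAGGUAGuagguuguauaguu
let-7g-5p: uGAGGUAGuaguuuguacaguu
miR-98-5p: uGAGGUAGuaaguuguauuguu
miR-125b-5p: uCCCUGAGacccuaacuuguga
Of the mature let-7 family sequences in the RefSeq table (GRCm38.p6), 10 shared the seed of let-7a, counting miR-98, and let-7j alone differed in it. The letters GGAG, which Lin28 is known to bind, lay between both arms in 8 of 11 let-7 family hairpins, as in the hairpin of let-7g, where they are in capitals.
Mirlet7g hairpin: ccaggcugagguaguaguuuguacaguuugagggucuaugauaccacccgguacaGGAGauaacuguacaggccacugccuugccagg

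A level here is the log2 of the processed signal after division by the array's own 75th percentile, so 0 stands for a signal at that percentile, and differences are mutant minus control on this scale. The levels of different probes are not set against each other, because probes differ in how strongly they bind. The 75th percentile of the signal was 1206.9 to 1380.2 in mutants and 1446.2 to 1833.2 in controls, and 65.75% to 67.9% of spots in mutants and 68.68% to 70.1% in controls were well above background. Of the markers of the dorsal forebrain, Emx1, Emx2, Lhx2, Dmrta2, Pax6 and Eomes were each well above background on every array. Their levels differed between the groups, with Emx1 (-0.81), Emx2 (-0.92), Lhx2 (-0.58) and Dmrta2 (-0.50) lower, and Pax6 (0.33) and Eomes (0.38) higher, in every mutant than in every control, with adjusted p in limma of 0.0706 for Emx2 and 0.108 or more for the others. The part of these differences in the members' values was not tested. Of the markers of other tissues, those of the subpallium were lowest in control 3, where the median of 5 genes lay -1.99 log2 units from the control mean, against 0.85 to 1.94 on the other 5 arrays. The arrays number 3 in each group, which limits the precision of every value.

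None of the 14 probes passed the test over the whole array in limma, with or without control 3. Without control 3, an unadjusted p under 0.05 was reached by 2 of the 14 and by 2365 of all 26849 probes. The members' share was above that of the array in that fit, but a count of 2 is too small to be read as a result about the members. Those 2 were Hmga2 probe 1 and Lin28a, while Igf2bp1 was at an unadjusted p of 0.0753 (limma). Over all 26849 probes tested with limma, 7 passed an adjusted p of 0.05 (0.0261% of those tested), of which 2 were higher (0.00745%) and 5 lower (0.0186%) in mutant embryos. With litter as a block 0 passed, and an unadjusted p under 0.05 was reached by 4 of the 14 members and by 19.2% of all probes (5143). The split was 78 higher and 76 lower with normexp background correction, and 4 higher and 23 lower with median centring. The smallest adjusted p of a member was 0.174, that of a probe for Hmga2. At an unadjusted p under 0.05 stood 2 of the 14 probes, one for Hmga2 and one for Igf2bp1, while 16.4% of all probes did (9.01% higher and 7.44% lower). Both members were lower. With normexp it was 4 of the 14, against 28% of all probes. Hmga2 probe 1 and Igf2bp1 were also the only member probes whose groups did not overlap, as was the case for 24.3% of all probes (12.3% higher and 12% lower). In either direction together, the members' share was below that of the array in both counts. For lower probes alone it was above the array's share. With only 14 probes, such shares are too coarse to be read as a result about the members. With litter as a block the share in either direction together was above that of the array, and with normexp it was about level. The 4 probes of each of these fits included Trim71 probe 2 and Hmga1 probe 2, both higher in mutants. Differences were negative for 7 probes and positive for 7, with a median of -0.01, against 0.02 over all probes. The median size regardless of sign was 0.173 for the members and 0.141 over all probes. All 14 probes passed the filter on dim signals, and 13 were well above background on every array.

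**Figure D1:**
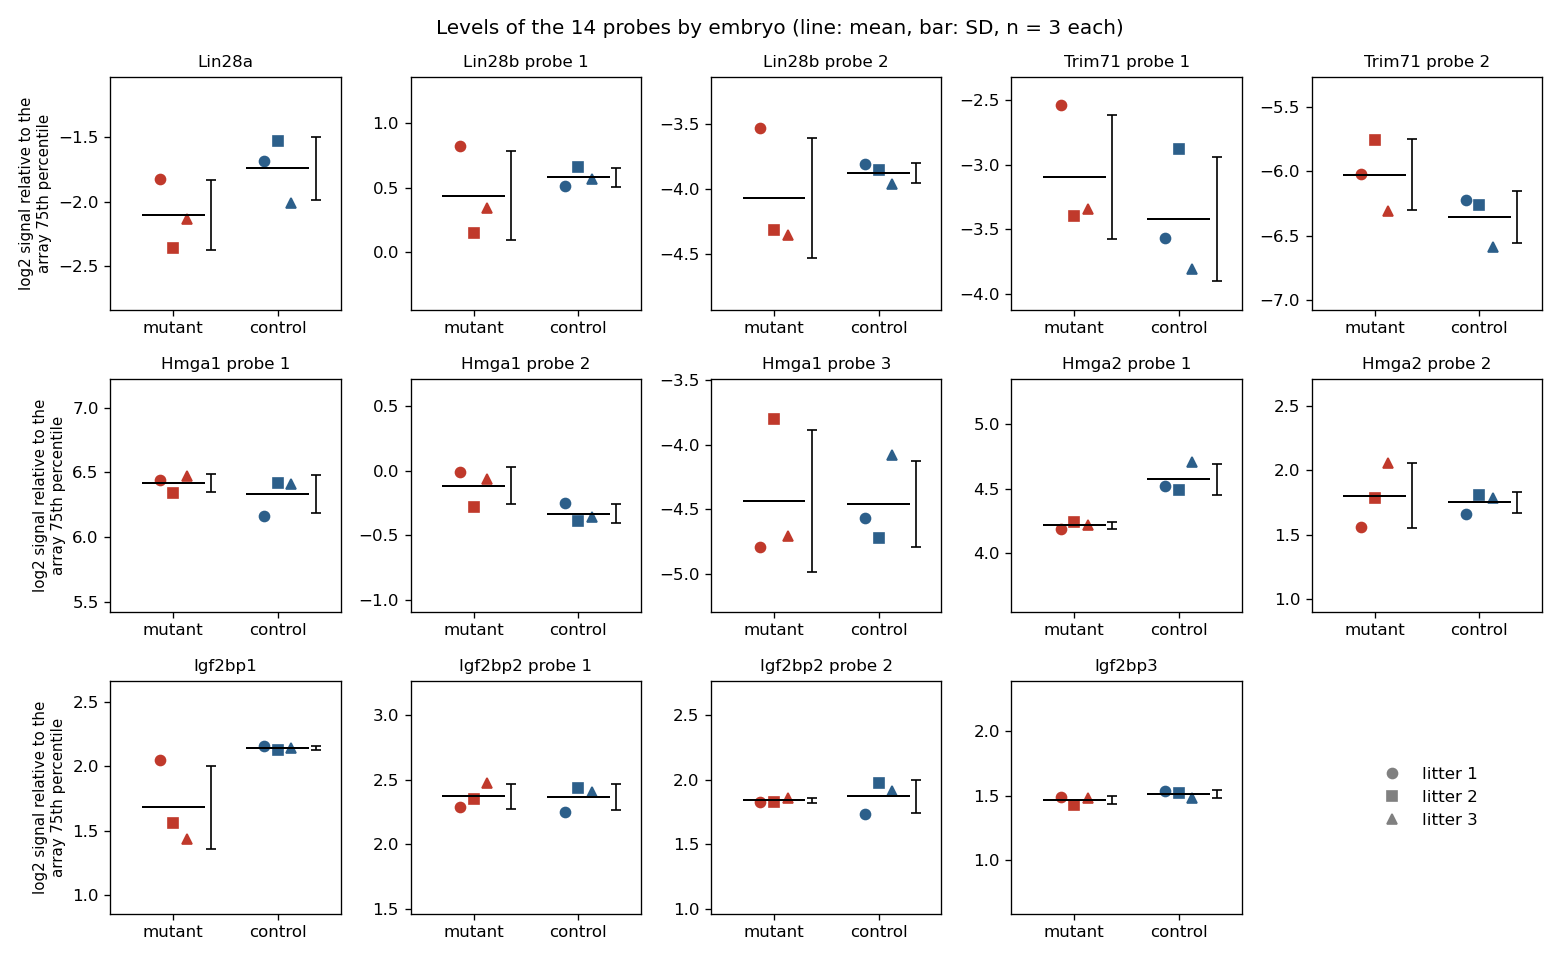
Levels of the 14 probes in each embryo, as log2 signal relative to the array's 75th percentile, with mutants left of controls, symbols for litters, lines for means and bars for SD (n = 3 each). All panels span the same range of 1.8 log2 units, and only Hmga2 probe 1 and Igf2bp1 have groups that do not overlap.

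Of the inhibitors of let-7, both Lin28 genes had lower mean levels in the mutants, by differences that did not pass the test. Lin28a, the form known from pluripotent cells and early neural tissue, measured -1.82, -2.36 and -2.13 in mutant embryos 1, 2 and 3, against -1.68, -1.53 and -2.01 in control embryos 1, 2 and 3. Mutant 1 lay within the range of the controls, so the groups overlapped. The ratio of mutants to controls was 0.776 (95% interval 0.565 to 1.066, log2 difference -0.37, SE 0.19, limma, adjusted p = 0.389). The authors' deposited table gives Lin28a a log2 ratio of -0.408 and an fdr of 0.1318. With 1 embryo left out the difference ranged from -0.509 (without mutant 1) to -0.236 (without mutant 2), and it was -0.261 without control 2 and -0.502 without control 3. The probe lies in mm9 on chromosome 4 from 133559245 to 133559304 and was designed to NM_145833. In whole tissue of this kind, fewer cells of a type and less RNA per cell cannot be told apart.

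Lin28b, its paralogue, was read by 2 probes 43944 bases apart on chromosome 10, from 45096468 to 45096527 (probe 1) and from 45140412 to 45140471 (probe 2), both designed to NM_001031772. Probe 1 was at 0.82, 0.15 and 0.34 in mutant embryos, against 0.51, 0.66 and 0.57 in control embryos. Probe 2 was at -3.53, -4.32 and -4.36 in mutant embryos, against -3.81, -3.85 and -3.96 in control embryos. Both probes thus placed mutant 1 above all 3 controls, and mutants 2 and 3 below all of them. Their differences of -0.15 (SE 0.18, adjusted p = 0.708) and -0.20 (SE 0.23, adjusted p = 0.711, both limma) did not pass. The distance between the levels of both probes was 4.34, 4.46 and 4.70 in mutant embryos, against 4.32, 4.52 and 4.53 in control embryos. The probes ordered mutants 2 and 3, and the controls, differently. Probe 2 was dim, with processed signals of 58.7 to 114.3 in mutants and 93.1 to 130.7 in controls, and its difference was -0.03 with normexp.

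Trim71, the homologue of worm lin-41 and a repressor of messenger RNAs, had higher mean levels in the mutants on both probes, and neither difference passed. Its probe 1, on chromosome 9 from 114420415 to 114420474, was at -2.54, -3.40 and -3.34 in mutant embryos, against -3.57, -2.88 and -3.81 in control embryos, a difference of 0.33 (SE 0.33, limma, adjusted p = 0.653) that was 1.04 in litter 1 and -0.02 on slide 2. Probe 2, 1254 bases away from 114421669 to 114421728, was at -6.02, -5.76 and -6.31 in mutant embryos, against -6.22, -6.26 and -6.59 in control embryos, again a difference of 0.33 (SE 0.17, adjusted p = 0.402). The groups overlapped for both probes. Probe 2 had processed signals of at most 25.5 in mutants and 24.6 in controls, and it was not well above background in mutant 1. In the authors' deposited table the log2 ratios were 0.1657 for probe 1 and 0.00908 for probe 2, both smaller than the differences found here. The highest embryo differed between the probes, mutant 1 for probe 1 and mutant 2 for probe 2.

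**Figure D2:**
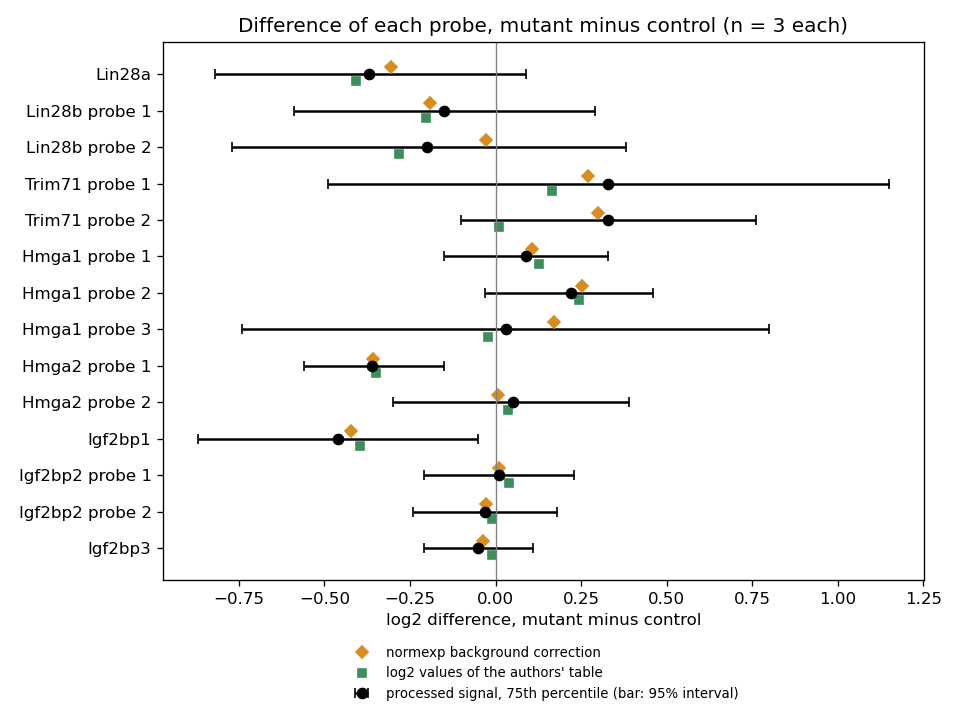
Log2 difference of each probe, mutant minus control (n = 3 each), with black points and 95% intervals from limma on the processed signals, diamonds for normexp background correction and squares for the authors' log2 values. The intervals of Hmga2 probe 1 (-0.56 to -0.15) and Igf2bp1 (-0.87 to -0.05) lie below 0 before adjustment, and that of Trim71 probe 1 is the widest (-0.49 to 1.15).

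Hmga1 and Hmga2 encode small chromatin proteins that bind AT-rich DNA through AT-hooks, and Hmga2 is known to sustain the self-renewal of fetal neural stem cells. Hmga2 probe 1 was the member nearest to the threshold. Its processed signal, before scaling between arrays, was 24086.8, 26054.0 and 22484.7 in mutant embryos 1, 2 and 3, against 42120.1, 33247.5 and 37755.4 in control embryos 1, 2 and 3. The scaled levels were 4.19, 4.24 and 4.22 in mutant embryos, against 4.52, 4.49 and 4.71 in control embryos. Every mutant lay below every control, and the mutants differed from each other by less than the controls did. The signal in mutants was 0.781 of that in controls (95% interval 0.678 to 0.9, log2 difference -0.36, SE 0.08), which did not pass in limma (unadjusted p = 0.00541, adjusted p = 0.174). Within litters 1, 2 and 3 the differences were -0.33, -0.25 and -0.49, and they were -0.33 within slide 1 and -0.37 within slide 2. The difference lay between -0.46 and -0.29 under every alternative, with adjusted p between 0.082 and 0.528, and it was -0.289 without control 3. The authors' deposited table gives this probe a log2 ratio of -0.3505 and an fdr of 0.06736.

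The second Hmga2 probe had no such difference. Probe 2 was at 1.56, 1.79 and 2.06 in mutant embryos, against 1.66, 1.81 and 1.79 in control embryos, a difference of 0.05 (SE 0.14, 95% interval -0.30 to 0.39, limma, adjusted p = 0.888). With median centring it was -0.055, above the median of all probes there (-0.083). Both probes were designed to NM_010441 and lie 1882 bases apart on chromosome 10, probe 1 from 119798739 to 119798798 and probe 2 from 119800621 to 119800680, on the minus strand, so that probe 1 is nearer to the end of the transcript. Whether each lies in an exon or a UTR was not determined, as no mm9 annotation was used here. The distance between the 2 levels was 2.63, 2.45 and 2.16 in mutant embryos, against 2.86, 2.68 and 2.92 in control embryos. It was smaller in every mutant than in every control, by 0.40 in the mean (difference -0.40, exact permutation test, two-sided, p = 0.1, the smallest that 3 against 3 embryos allow, and 0.7 adjusted over the 7 pairs of probes compared). In the other 6 pairs, from Lin28b, Trim71, Hmga1 and Igf2bp2, the groups overlapped.

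The 3 probes of Hmga1 had positive differences, none of which passed. Probe 1 was bright, with processed signals of 106932.7 to 114450.5 in mutants and 122897.3 to 131395.8 in controls, and its level was 6.44, 6.34 and 6.47 in mutant embryos, against 6.16, 6.42 and 6.41 in control embryos (difference 0.09, SE 0.10, limma, adjusted p = 0.689). With median centring, which set the median of all probes to -0.083, the difference was -0.016, still above that median. Probe 2 was at -0.01, -0.28 and -0.06 in mutant embryos, against -0.25, -0.39 and -0.36 in control embryos. Mutants 1 and 3 lay above all controls and mutant 2 within their range, and the difference of 0.22 (SE 0.10, adjusted p = 0.35) did not pass. Probe 3 was dim and scattered, at -4.79, -3.80 and -4.71 in mutant embryos, against -4.57, -4.72 and -4.08 in control embryos (difference 0.03, SE 0.31, adjusted p = 0.976), and it was -0.088 with quantile normalization, where the median of all probes was -0.017, and -0.022 with the authors' values, where that median was -0.015. In mm9 the probes lie on chromosome 17 from 27700543 to 27700602, from 27696588 to 27696647 and from 27693913 to 27693973.

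The Igf2bp genes encode KH-domain proteins that bind messenger RNAs and govern their stability, transport and translation. Of them, Igf2bp1 had the largest difference of the 14 probes in this fit, though not under every alternative. With the authors' log2 values it was -0.397, against -0.408 for Lin28a. Without mutant 3 it was -0.336, against 0.474 and 0.455 for the Trim71 probes. Without mutant 2 it was -0.398 and without control 2 -0.464, against 0.483 and 0.601 for Trim71 probe 1. Without control 3 it was -0.461, against -0.502 for Lin28a. The level of Igf2bp1 was 2.05, 1.56 and 1.44 in mutant embryos 1, 2 and 3, against 2.16, 2.13 and 2.14 in control embryos 1, 2 and 3. The controls agreed within 0.03 on the log2 scale, mutant 1 lay just below them, and mutants 2 and 3 lay farther below. The ratio of mutants to controls was 0.727 (95% interval 0.548 to 0.966, log2 difference -0.46, SE 0.17), which did not pass in limma (unadjusted p = 0.0337, adjusted p = 0.269). Without mutant 1 the difference was -0.64 (adjusted p = 0.0893), and over all alternatives it lay between -0.64 and -0.34. The authors' deposited table gives a log2 ratio of -0.4023 and an fdr of 0.1945. The single probe lies on chromosome 11 from 95824526 to 95824585.

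The other Igf2bp genes had differences near 0, none of which passed. Igf2bp2 probe 1 was at 2.29, 2.35 and 2.48 in mutant embryos, against 2.25, 2.44 and 2.41 in control embryos, with a difference of 0.01 (95% interval -0.21 to 0.23, limma, adjusted p = 0.971). With median centring it was -0.094, close to the median of all probes there (-0.083). The probes lie on chromosome 16 from 22059260 to 22059319 and from 22059582 to 22059641, 322 bases apart. Probe 2 was at 1.83, 1.83 and 1.86 in mutant embryos, against 1.73, 1.97 and 1.91 in control embryos, a difference of -0.03 (95% interval -0.24 to 0.18, adjusted p = 0.894). Igf2bp3, read by a probe on chromosome 6 from 49035710 to 49035769, was at 1.49, 1.43 and 1.48 in mutant embryos, against 1.54, 1.52 and 1.48 in control embryos, a difference of -0.05 (95% interval -0.21 to 0.11, adjusted p = 0.723). Their groups overlapped. For Igf2bp3, a loss as large as the mean difference of Igf2bp1 lay outside the interval, but the difference between the genes was not tested.

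**Figure D3:**
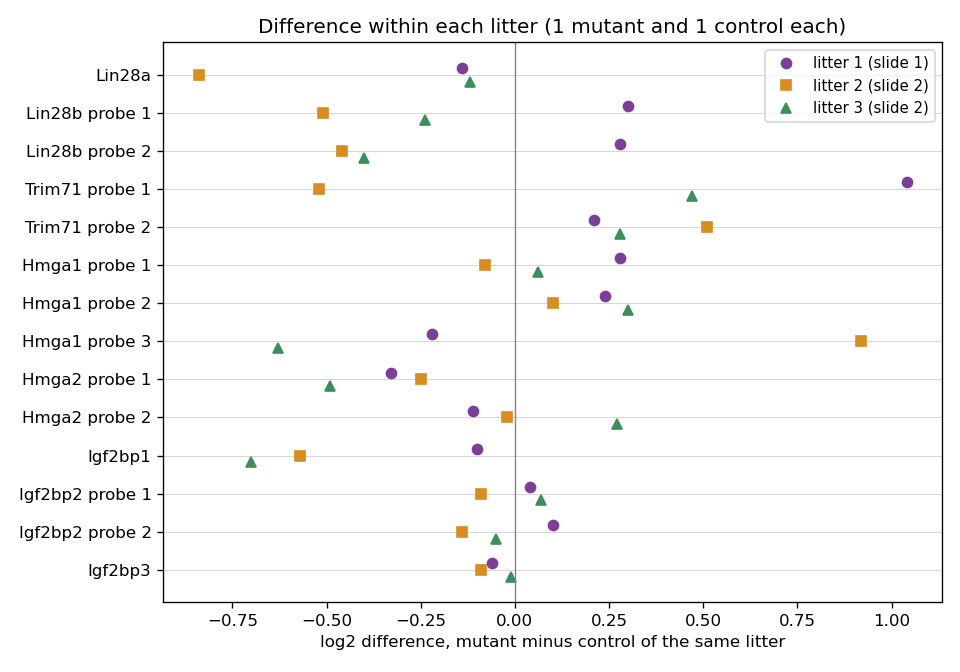
Log2 difference of each probe between the mutant and the control of the same litter, with circles for litter 1 (slide 1), squares for litter 2 and triangles for litter 3 (both slide 2). Hmga2 probe 1 is at -0.33, -0.25 and -0.49 in litters 1, 2 and 3, while both Lin28b probes are above 0 in litter 1 and below 0 in litters 2 and 3.

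Among the mutants, mutant 1 was the highest for each of the 4 probes of Lin28a, Lin28b and Igf2bp1, and for Trim71 probe 1. It was also the highest for Hmga1 probe 2 (-0.01, against -0.28 and -0.06 in mutants 2 and 3) and Igf2bp3 (1.49, against 1.43 and 1.48). For the remaining member probes it was not, and the order of mutants 2 and 3 varied between probes. Litter 1 was hybridised on slide 1 and the other litters on slide 2, so that this embryo is also set apart by slide. Within litter 1 the differences were -0.14 for Lin28a, 0.30 and 0.28 for Lin28b and -0.10 for Igf2bp1. Within slide 2 they were -0.48 for Lin28a, -0.38 and -0.43 for Lin28b and -0.64 for Igf2bp1. On slide 2 alone, with 2 embryos in each group, an unadjusted p under 0.05 was reached by 4 of the 14 probes, those of Lin28b, Igf2bp1 and Hmga2 probe 1, and by 18.1% of all probes, and 0 passed after adjustment in limma (smallest adjusted p = 0.195). Without mutant 1, on both slides, 5 of the 14 did (21% of all probes), the fifth being Lin28a, and again 0 passed after adjustment, where 0.00372% of all probes did. In both of these sets, which share embryos, the members' share was above that of the array. Both sets leave out mutant 1, the highest mutant for the 4 probes of Lin28a, Lin28b and Igf2bp1. Higher counts among these probes therefore follow from that choice and add no support. The fit on slide 2 alone was also added with the data already seen.

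Markers of other cells differed between the mutants in the same embryos. The median of 11 neuronal genes lay 0.09, 0.49 and 0.56 above the control mean in mutant embryos 1, 2 and 3, against 0.10, 0.00 and -0.11 in control embryos 1, 2 and 3. Of these 11, 6 were higher in mutants at an unadjusted p under 0.05, as were 9.01% of all probes, and 0 passed in limma. The median of 10 genes of the meninges and head mesenchyme lay 0.89, -0.24 and -0.66 from it in the mutants, against 0.14, 0.00 and -0.11 in control embryos. For the 5 microglial genes it was 0.06, -0.43 and -0.46 in mutant embryos, against 0.12, 0.00 and -0.11 in control embryos, and for the 7 erythroid genes 0.08, 0.02 and -0.95 in mutant embryos, against -0.02, -0.04 and 0.07 in control embryos. Among the mutants, mutant 1 was thus the lowest for the neuronal list and the highest for the other 3. Further lists varied in this. The median of 5 surface ectoderm genes lay at 0.19, 0.25 and -0.38 in mutant embryos, against -0.08, 0.12 and -0.02 in control embryos, and was highest in mutant 2. Subpallial genes were highest in mutant 3, radial glial genes (0.05, 0.13 and 0.21 in mutant embryos) were lowest in mutant 1, and endothelial genes (0.21, 0.08 and -0.40 in mutant embryos) were highest in mutant 1. The log2 of the summed scaled signals ranged from 6.23 to 6.72 in mutants and 6.04 to 6.15 in controls for neurons, and from 3.90 to 5.46 in mutants and 4.37 to 4.92 in controls for meninges and mesenchyme. For microglia it ranged from 0.48 to 1.30 in mutants and 0.92 to 1.17 in controls, and for erythroid genes from 8.59 to 9.27 in mutants and 9.04 to 9.23 in controls. Each tested gene of these lists was well above background on all 6 arrays, except Ptprc of the microglial list and Epcam of the surface ectoderm list. Their part in the levels of Lin28a, Lin28b, Hmga2 and Igf2bp1 was not tested. The mutants of Hmga2 probe 1 lay within 0.05 of each other. Those of Hmga2 probe 2 (1.56, 1.79 and 2.06) and of Igf2bp2 probe 1 (2.29, 2.35 and 2.48) rose from mutant 1 to mutant 3, as the neuronal list did. Controls 1, 2 and 3 were at 1.66, 1.81 and 1.79 for Hmga2 probe 2, where the neuronal list fell. For Igf2bp2 probe 1 they were at 2.25, 2.44 and 2.41. A link of either probe with the neuronal list was not tested.

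**Figure D4:**
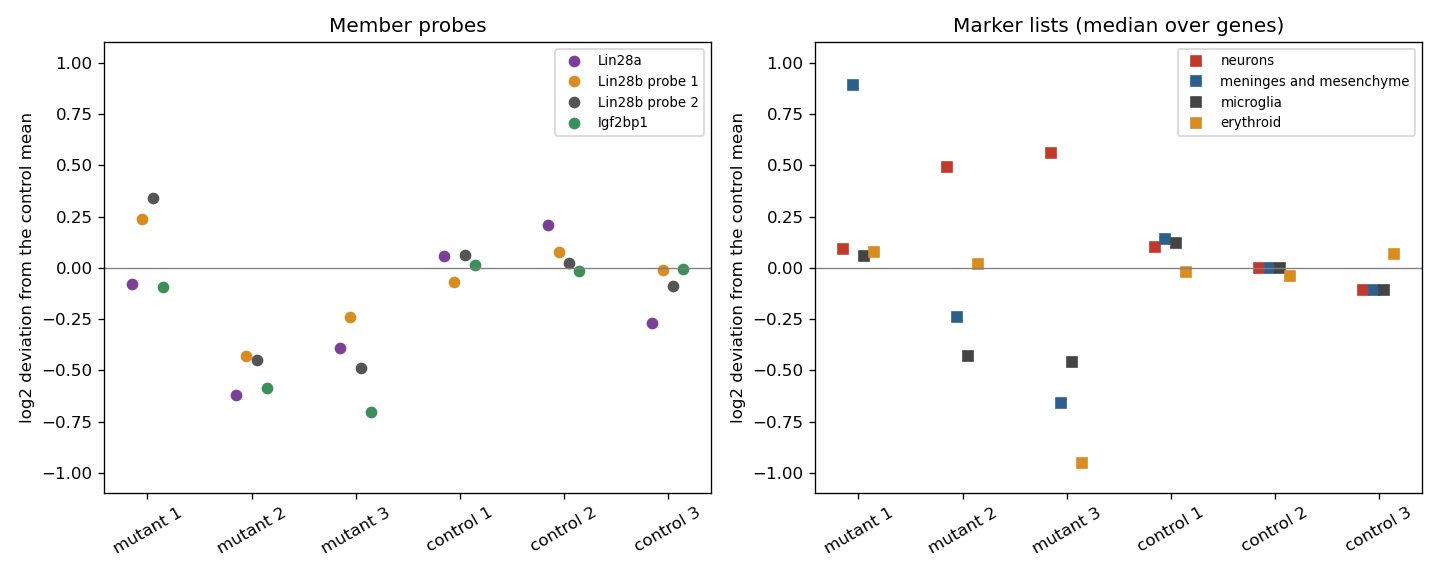
Deviation of each embryo from the control mean, in log2 units, for the probes of Lin28a, Lin28b and Igf2bp1 (left) and for the median of 4 marker lists (right). Among the mutants, mutant 1 is the highest for all 4 probes, the highest for meninges and mesenchyme (0.89) and the lowest for neurons (0.09).

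Around the members, the genes that make let-7 and act with it had as many positive as negative differences, 9 each. Of these 18 genes 0 passed in limma, the median difference was -0.005, and 3 were higher and 1 lower at an unadjusted p under 0.05, against 9.01% and 7.44% of all probes. Those were Tnrc6b (0.26), Tnrc6c (0.23) and Ago4 (0.34) on the higher side and Ago2 (-0.21) on the lower, all of them parts of the silencing complex, with adjusted p between 0.234 and 0.302. The enzymes that Lin28 recruits or that dispose of its targets, named here for that role, were at -0.11 for the uridylyl transferase Tut4, 0.09 for Tut7 and -0.06 for the exonuclease Dis3l2, none of which passed, with Tut4 lower in every mutant than in every control. Of the enzymes and carriers that process let-7, Drosha (-0.15), Dgcr8 (-0.11) and Xpo5 (-0.25) were lower in every mutant than in every control without passing. Over all probes, 12% were lower in this way. Dicer1 was at 0.08 with overlapping groups. Groups also overlapped for Tarbp2 (-0.04), Prkra (0.06), Xrn2 (-0.07) and Khsrp (0.04) of the same list.

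Of 19 known let-7 targets outside the members, 13 had negative differences (median -0.058), 0 passed in limma, and 1 was higher and 2 lower at an unadjusted p under 0.05 (9.01% and 7.44% of all probes). The proto-oncogene Mycn came nearest, at 2.28, 1.95 and 1.95 in mutant embryos, against 3.15, 3.28 and 3.37 in control embryos (difference -1.21, SE 0.12, adjusted p = 0.0592). It lay lower in every mutant than in every control, and mutant 1 was again the highest mutant. The zinc-finger factor Plagl2 (-0.31, adjusted p = 0.192) and the small GTPase Nras (-0.20, adjusted p = 0.319) also had groups that did not overlap, with lower mutants. So did Cdc25a (-0.14) and Nap1l1 (-0.14), whereas the ARID-domain protein Arid3b was higher in every mutant (0.38, adjusted p = 0.27). The groups of the other targets overlapped. Over all probes, groups did not overlap for 24.3% (12.3% higher and 12% lower), and the targets were not tested against this share.

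The insulin-like growth factor genes, which include Igf2, the transcript after which the Igf2bp proteins are named, had a median difference of -0.016 over 12 genes, and 0 passed in limma. At an unadjusted p under 0.05 stood only Irs1 of these 12, which was lower, as were 7.44% of all probes. Irs1, an adaptor of the insulin receptors, was lower in every mutant than in every control (-0.31, SE 0.09, adjusted p = 0.207). Irs2 (0.37), which is also in the list of let-7 targets, Igfbp2 (-0.33) and Igfbp3 (0.52) had groups that overlapped. Igf2 itself, named for that role, measured -0.20, -1.20 and -1.87 in mutant embryos 1, 2 and 3, against -0.88, -0.87 and -1.05 in control embryos, so that its mutants followed the order of the meninges and mesenchyme list. Of 10 genes whose messenger RNA is known to be bound by Igf2bp proteins, 8 had positive differences (median 0.204), 0 passed in limma, and 3 were higher at an unadjusted p under 0.05 (9.01% of all probes). Nearest were Mapk4 (0.61, adjusted p = 0.18), the growth cone protein Gap43 (0.61, adjusted p = 0.207), which is also in the neuronal list, beta-actin (Actb, 0.20, adjusted p = 0.285) and the hyaluronan receptor Cd44 (0.45, adjusted p = 0.309).

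Hmga2 is known to hold back the cell cycle inhibitors of the Cdkn2a locus in neural stem cells. The probes of Cdkn2a and Cdkn2b did not pass the filter on dim signals. The related Cdkn1a (0.47, adjusted p = 0.315), Cdkn2c (0.20, adjusted p = 0.556) and Cdkn1b (0.17, adjusted p = 0.381) had positive differences that did not pass. Among 11 genes of later, glia-producing progenitors, the differences ran both ways, from -1.74 to 1.39 (median 0.268), with 5 higher and 2 lower at an unadjusted p under 0.05 (9.01% and 7.44% of all probes) and 0 past the threshold. The transcription factor Nfix was the lowest (-1.74, SE 0.15, adjusted p = 0.0543), and the radial glial genes Fabp7 (1.39, SE 0.13, adjusted p = 0.0557) and Slc1a3 (0.99, adjusted p = 0.136) and the factor Zbtb20 (0.77, adjusted p = 0.175) were higher in every mutant than in every control. Each of these 4 genes differed by more than any member did.

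**Figure D5:**
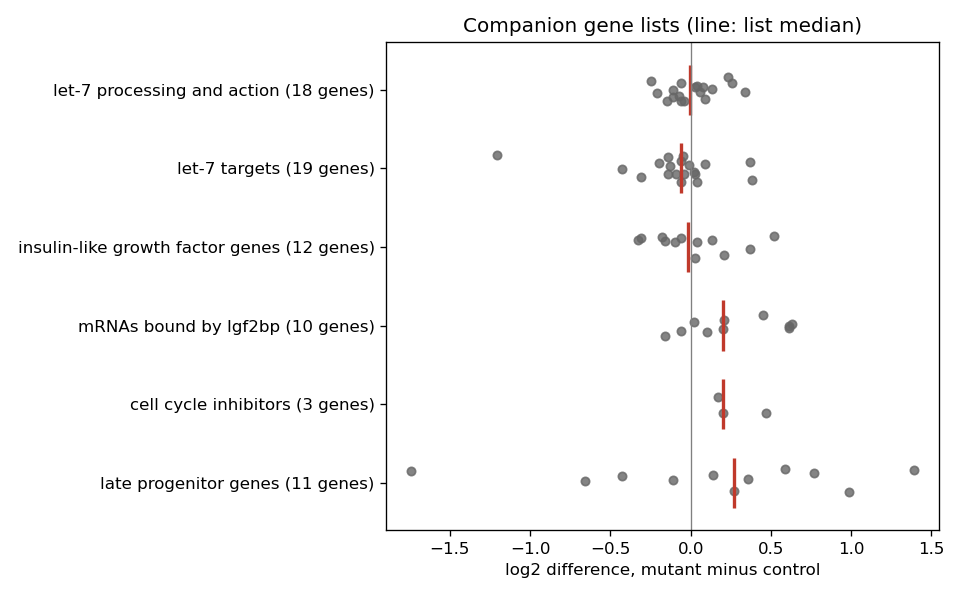
Log2 difference, mutant minus control, of each gene in 6 companion lists, 1 point a gene, with a line at the list median. Medians lie between -0.058 for let-7 targets and 0.268 for late progenitor genes, and the points farthest from 0 are Nfix (-1.74), Fabp7 (1.39) and Mycn (-1.21).

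The genes whose levels over the 6 arrays were most like those of each member were ranked by Pearson's r over 14907 named genes, each by its brightest probe. They were Ly6g5b and Mpv17l for Lin28a, Icosl and Rasl11b for Lin28b, Cdkn3 and Tspan17 for Trim71, Fau and Rps14 for Hmga1, Mtch2 and Snrnp40 for Hmga2, Rgs19 and M6pr for Igf2bp1, Itch and Mrpl49 for Igf2bp2, and Asah1 and Zscan18 for Igf2bp3. The r ran from 0.9703 to 0.9973. These are descriptions of 6 arrays that share their scaling, and with so few arrays many genes reach such values.

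Promoter sequences in the RefSeq table were available for 7 of the 8 genes, in 8 windows of 300 bases. The letters CTTTGA, on either strand, are the core of the motif of Tcf and Lef factors, the DNA-binding partners of beta-catenin. They occurred in 1 of the 8 windows, that of Lin28a, and in 16% of all 32851 windows. The E-box CACGTG, bound by Myc proteins and the same on both strands, occurred in 2 of the 8, those of Lin28b and Igf2bp3, and in 7.2% of all. The Lin28a window, chr4:134018767-134019066 of GRCm38.p6 on the minus strand, is shown because it holds the motif of the pathway in the study's title, in capitals, from position -72 before the start.
Lin28a promoter: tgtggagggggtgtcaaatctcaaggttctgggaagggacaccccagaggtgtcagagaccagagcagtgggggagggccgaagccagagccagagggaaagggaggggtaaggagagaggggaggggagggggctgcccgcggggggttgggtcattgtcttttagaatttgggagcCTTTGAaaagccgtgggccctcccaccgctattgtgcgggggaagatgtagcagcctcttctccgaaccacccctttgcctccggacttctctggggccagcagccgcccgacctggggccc
Such a match is a description of letters and was not tested as a binding site.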

How the data were processed

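Total RNA of 6 embryos was hybridised to Agilent 1-colour arrays. The scanner files hold spot intensity, read by the authors with Agilent's Feature Extraction software (10.7.3.1, probe positions in mm9) and background-subtracted array by array, per the file headers. Flags for spots well above background are deposited as scores of 0 or 1, per those headers. A deposited table of the authors holds log2 values, a log2 ratio, a linear ratio, a p-value and an fdr per probe. How it was normalized is not stated, and the submitters' processing notes name limma without a role. Its fdr is NA for 6 of the 14 member probes. Its column numbers do not follow the arrays (the first mutant column correlated best with mutant 2, r = 0.956 over deviations from probe means), so its columns were used by group.

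Outlier spots were left out, spots of a probe averaged, and log2 of the processed signal scaled to the array's 75th percentile. The filter kept probes flagged well above background on 3 or more arrays, and 92 probes without a value on some array were left out. Probes were named by accession through a RefSeq table, or else by the authors' table. Mutants were tested against controls with limma 3.58.1 (lmFit, eBayes; R 4.3.3), two-sided, with Benjamini-Hochberg adjustment over all 26849 probes, so that every member probe has its own p. The fit was tested on simulated data. Alternatives were normexp (offset 50) on the median signals, quantile normalization, median centring, no filter, a filter on all 6 arrays, a block for litter or for slide, robust variance with a trend, the brightest probe of each gene, the authors' log2 values, and omission of each embryo. Slide 2 alone was added after seeing the data.

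The labels pair the embryos by litter. Embryos of litters 1, 2 and 3 deviated from their group means with correlations of 0.303, 0.34 and 0.109, and between -0.381 and 0.091 across litters. The embryos are separate, per the labels. The members and lists were chosen with earlier results of these data known. The text names all members, up to 4 genes of each companion list by smallest p, and the 2 genes most like each member, clone names skipped. A gene named for its role, or for the overlap of its groups in the let-7 lists, was chosen after its values were seen. Python 3.11.15 and scipy 1.17.1 were also used.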

Additional observations from a re-analysis of the deposited data

How the results depend on the processing

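The count of member probes past the threshold stayed at 0 of 14 (0 of 13 with the filter on all 6 arrays, 0 of 8 with the brightest probes) in limma under all 17 alternatives, with 1 to 5 at an unadjusted p under 0.05 and a smallest adjusted p of 0.082. The count over the whole array, 7, was 154 with normexp, 144 with trend and robust variance, 27 with median centring, 25 with the filter on all 6 arrays or the authors' log2 values, 19 with quantile normalization, and 0 without a filter (9407 at an unadjusted p under 0.05), with litter as a replicate block (5143), with slide as a block (5117) or on slide 2 alone (4852). It was 0 to 2 with 1 embryo left out, namely 1 without mutant 1 and 2 without mutant 3. The share of these calls that were higher was 28.6%, against 50.6% with normexp and 14.8% with median centring. Median centring set the median difference of all probes to -0.083, against 0.02, so values there are read relative to it, and of the 4 that changed sign there only Igf2bp2 probe 1 lay below it. The litter block changed no member's call.

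Of 231 alternative values of the member differences, 215 kept sign and side of the threshold and 16 changed sign. With median centring, Hmga1 probes 1 and 3 were at -0.016 and -0.077, Hmga2 probe 2 at -0.055 and Igf2bp2 probe 1 at -0.094. Hmga1 probe 3 was at -0.088 with quantile normalization and -0.022 with the authors' values. On slide 2 alone Trim71 probe 1 was at -0.023, Hmga1 probe 1 at -0.008 and Igf2bp2 probe 1 at -0.008. With 1 embryo left out, the differences ran from -0.291 to 0.214 for Hmga1 probe 3, from -0.081 to 0.171 for Hmga2 probe 2, from -0.049 to 0.049 for Igf2bp2 probe 1 and from -0.098 to 0.023 for its probe 2. Those of Lin28a ran from -0.509 to -0.236, of Lin28b from -0.341 to -0.008 (probe 1) and from -0.465 to -0.049 (probe 2), and of Trim71 probe 1 from 0.052 to 0.601. The causes were not tested. Trim71 probe 2, near background, and the dim Lin28b probe 2 and Hmga1 probe 3 limit what can be said of small differences.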
